A study of Mus musculus with 15 samples.

Results

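The naive pluripotency genes described here are Nanog, Esrrb, Tfcp2l1, Tbx3, Prdm14, Zfp42, Nr0b1, Nr5a2, Gbx2 and Tcl1, 10 of the 21368 genes that the probes of a mouse expression array could be named for. They were picked by symbol, through the RefSeq accession of each probe, by a rule that uses no measured value, although the list was drawn up with earlier results of these data known. All 10 passed the filter on dim probes, as did 14443 genes in all. Of these, 9 encode transcriptional regulators, whereas Tcl1 encodes a cofactor of the kinase AKT and is grouped with them as a gene of the naive state.

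Naive mouse embryonic stem cells correspond to the epiblast of the blastocyst before implantation, and they are held in that state by a network of transcription factors that activate each other and themselves. LIF acting through STAT3, and low activity of the ERK pathway, feed into this network at different members: Tfcp2l1, Gbx2 and Tbx3 are known targets or mediators of such signals, and Nanog and Esrrb lie close to its centre. The members are lowered when the cells pass to the formative and primed states, in which genes such as Fgf5 and Otx2 are switched on.

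The 15 arrays covered 5 groups of mouse embryonic stem cells with 3 arrays each, all grown on gelatin in standard medium for such cells. Map3k3 +Dox and Map3k3 no-Dox are the same Nat1-null line with a tetracycline-inducible Map3k3 transgene, with and without doxycycline (Dox). EGFP +Dox is a Nat1-null line with an inducible EGFP transgene, grown with Dox, and the remaining groups are null cells (Nat1-null, with no transgene named) and wild-type (WT) cells. All groups but WT therefore carry the Nat1-null genotype. Nat1 of the labels is the translation initiation factor now named Eif4g2, and Map3k3 is a kinase that activates MAP kinase cascades. The labels do not say whether each line is a single clone, whether the null cells were made from these WT cells, or whether the 3 samples of a group were separate cultures, and the p-values below speak for the variation among these samples only, which may be technical.

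On each array the 75th percentile of all probes was subtracted from the log2 signal, the result is written as log2 units, and levels of different probes cannot be compared with each other. The 75th percentile lay between 494 and 614 intensity units, and 42.7 to 53.9% of the probes of an array were well above background, with the lowest share on Map3k3 +Dox array 2. Eif4g2 averaged 1.71 ± 0.19 log2 units in null cells and 4.31 ± 0.15 in WT cells (SD, n = 3 each), in the direction of the label. The Map3k3 probe averaged -0.50 ± 0.16 in Map3k3 +Dox cells, -0.69 ± 0.21 in Map3k3 no-Dox cells and -0.77 ± 0.10 in EGFP +Dox cells, and it was not called in any comparison of these groups, so the array holds no check that the transgene was induced. Of 6 markers of embryonic stem cells, Pou5f1, Sox2, Utf1, Sall4 and Lin28a were above background in every group, while Fut4 was not above background on any array of the Map3k3 no-Dox, EGFP +Dox and null groups.

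The genes lie, on GRCm38.p6, at chr6:122707489-122714633 (Nanog), chr12:86361117-86521628 (Esrrb), chrX:86191775-86195947 (Nr0b1), chr8:43295067-43307009 (Zfp42), chr12:105216753-105222737 (Tcl1) and chr5:119670534-119684724 (Tbx3). The other 4 are on chromosome 1: Prdm14 at chr1:13113428-13127163, Gbx2 at chr1:89927962-89931176, Tfcp2l1 at chr1:118627923-118685168 and Nr5a2 at chr1:136842562-136960448.

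The start regions of some members show which short sequences lie where regulators could be looked for. RefSeq windows (GRCm38.p6) from 250 bases before to 50 bases after an annotated start were held for 8 of the 10 members, in 11 windows, and Tbx3 and Prdm14 were not among them. The windows shown are those with a match to 1 of 5 motifs: AAGGTCA, which ESRRB and NR5A2 can bind, TTCNNNGAA, which STAT proteins can bind, the paired motif of the grainyhead family of TFCP2L1, and the octamer pieces ATTTGCA and TTTGCAT, which overlap by all but 1 letter. TTTGCAT was added after the windows had been read. Capitals mark the matches on either strand, and Nanog is shown by 1 of its 2 windows, the 2 overlapping.
Nanog, chr6:122707315-122707614, plus strand: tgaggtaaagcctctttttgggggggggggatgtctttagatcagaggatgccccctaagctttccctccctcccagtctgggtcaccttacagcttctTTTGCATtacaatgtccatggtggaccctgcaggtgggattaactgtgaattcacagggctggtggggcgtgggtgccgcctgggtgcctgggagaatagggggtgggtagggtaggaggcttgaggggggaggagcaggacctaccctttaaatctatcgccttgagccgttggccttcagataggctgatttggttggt
Zfp42, chr8:43306960-43307259, minus strand: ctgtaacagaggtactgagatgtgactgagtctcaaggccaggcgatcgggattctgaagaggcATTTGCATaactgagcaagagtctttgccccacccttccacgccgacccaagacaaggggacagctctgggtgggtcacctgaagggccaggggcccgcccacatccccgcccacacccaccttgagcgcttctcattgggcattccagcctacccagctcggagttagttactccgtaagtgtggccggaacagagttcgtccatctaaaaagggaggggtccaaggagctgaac
Esrrb, chr12:86360867-86361166, plus strand: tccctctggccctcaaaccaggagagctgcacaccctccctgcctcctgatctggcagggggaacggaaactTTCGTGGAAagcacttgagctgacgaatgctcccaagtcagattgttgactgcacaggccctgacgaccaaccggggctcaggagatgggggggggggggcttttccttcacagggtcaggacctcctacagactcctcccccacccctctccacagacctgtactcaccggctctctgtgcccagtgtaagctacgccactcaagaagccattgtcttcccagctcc
In the Nanog and Zfp42 windows the capitals are the octamer letters. In Nanog they begin at position -151 from the annotated start that the printed window belongs to, and at -75 from the other annotated start, and in Zfp42 both overlapping pieces match together. The Esrrb capitals are the STAT letters, at position -178 from the start. TTTGCAT was held by 4.63% of all 32851 windows, ATTTGCA by 4.02% and TTCNNNGAA by 8.30%. AAGGTCA and the grainyhead motif were in none of the 11 member windows, against 4.72% and 3.44% of all windows. GGGNGTG, letters that KLF proteins can bind, was in 7 of the 11 member windows and in 29.2% of all windows, and TATAAA was in 3 of the 11 and in 13.6% of all windows. A match describes letters in a window and is not a measured binding site.

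Null cells were set against WT cells to describe how the naive genes differ between these lines. Loss of Nat1 and any other difference between the lines cannot be told apart here. All 10 rose in null cells, by 0.68 to 3.89 log2 units, with no overlap between the groups in any of them. Among all 14443 genes tested, 37.8% were called in this comparison, 17.3% higher and 20.5% lower, where a call needs a limma adjusted p under 0.05 and a difference of at least 1.5-fold, and the groups did not overlap in 71.9% of genes. The members' median difference was 1.195 log2 units, and that of all genes 0.073. In bulk RNA, fewer cells of a type and less RNA per cell cannot be told apart.

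Tbx3, Tfcp2l1 and Gbx2, through which LIF and related signals reach the network, lay far apart between the groups. Tbx3, a T-box factor, had 6.27, 6.53 and 6.25 log2 units in null cells, against 2.38, 2.61 and 2.39 in WT cells, a difference of 3.89 ± 0.11 (SE, limma adjusted p = 2.39e-10). Tfcp2l1, a grainyhead-family factor downstream of STAT3, had 5.96, 5.47 and 5.86 in null cells, against 2.66, 2.55 and 2.60 in WT cells. Every null array was more than 2 log2 units above every WT array for both genes. The homeobox gene Gbx2, another STAT3 target, had 2.76, 2.94 and 2.68 in null cells, against -0.23, 0.03 and 0.14 in WT cells, a difference of 2.81 ± 0.13. Prdm14, a PR-domain regulator that represses FGF signalling and DNA methyltransferase genes, stood with them: 3.28, 3.18 and 3.31 log2 units in null cells and 0.67, 0.86 and 0.92 in WT cells.

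Nanog, the homeobox factor at the centre of the network, had 7.36, 7.37 and 7.29 log2 units in null cells, against 6.07, 6.10 and 6.07 in WT cells. Esrrb, an orphan nuclear receptor that is a direct target of NANOG, had 7.76, 7.79 and 7.61 in null cells and 6.58, 6.55 and 6.63 in WT cells. Both genes were tightly grouped, with an SD of at most 0.10 log2 units in either group, and their differences of 1.26 and 1.13 log2 units were smaller than those of the signal-linked members. The other nuclear receptors were Nr0b1 (DAX1), a repressor partner of OCT4 and NR5A2, and Nr5a2, which binds the Pou5f1 gene. Nr0b1 had 5.21, 5.26 and 5.20 in null cells, against 4.10, 4.30 and 4.27 in WT cells, and Nr5a2 had 4.46, 4.08 and 4.64 in null cells, against 3.49, 3.58 and 3.63 in WT cells. The null arrays of Nr5a2 were the more spread, with an SD of 0.28 against 0.069 in WT cells, and its difference was 0.83 ± 0.24 (adjusted p = 0.00959).

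Zfp42 (REX1), a zinc-finger gene used as a marker of the naive state, and Tcl1 showed the smallest rises. Zfp42 had 7.80, 7.84 and 7.75 log2 units in null cells and 7.05, 7.16 and 7.13 in WT cells, a difference of 0.68 ± 0.062 or 1.61-fold. Tcl1 had 5.05, 4.97 and 4.50 in null cells and 4.05, 4.20 and 4.06 in WT cells, a difference of 0.74 ± 0.20 (adjusted p = 0.00694).

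WT and null arrays were on the same slide but in different slide rows, and the row effect can be fitted only through the other groups. With the row as a block the differences of the 10 members ranged from 0.63 for Zfp42 to 3.86 for Tbx3 and all stayed called. With slide and row fitted together, Zfp42 (0.57) and Nr5a2 (adjusted p = 0.0892, against 0.000262 to 0.0892 over all alternatives) were no longer called. The summed signal of 7 fibroblast markers, in multiples of the 75th percentile, was 6.15 to 6.3003 in null cells and 94.6 to 100.4 in WT cells. Col1a2, Acta2 and Dcn were not above background on any null array. Of the 7, 6 were called lower in null cells and 0 higher, where 20.5% of all genes were called lower and 17.3% higher. Bright probes weigh most in such a sum, so it can rest on few genes and does not measure a share of cells. For 11 trophectoderm markers the sum was 9.15 to 22.9 in null cells and 175.7 to 180.4 in WT cells. Of these 11, 8 were called lower in null cells and 2 higher. For the 6 stem-cell markers the sum was 167 to 178 in null cells and 127 to 143 in WT cells. Of these 6, 1 was called higher, 1 lower and 4 were not called. The part of these cells or genes in the differences of the naive members was not tested.

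**Figure D1:**
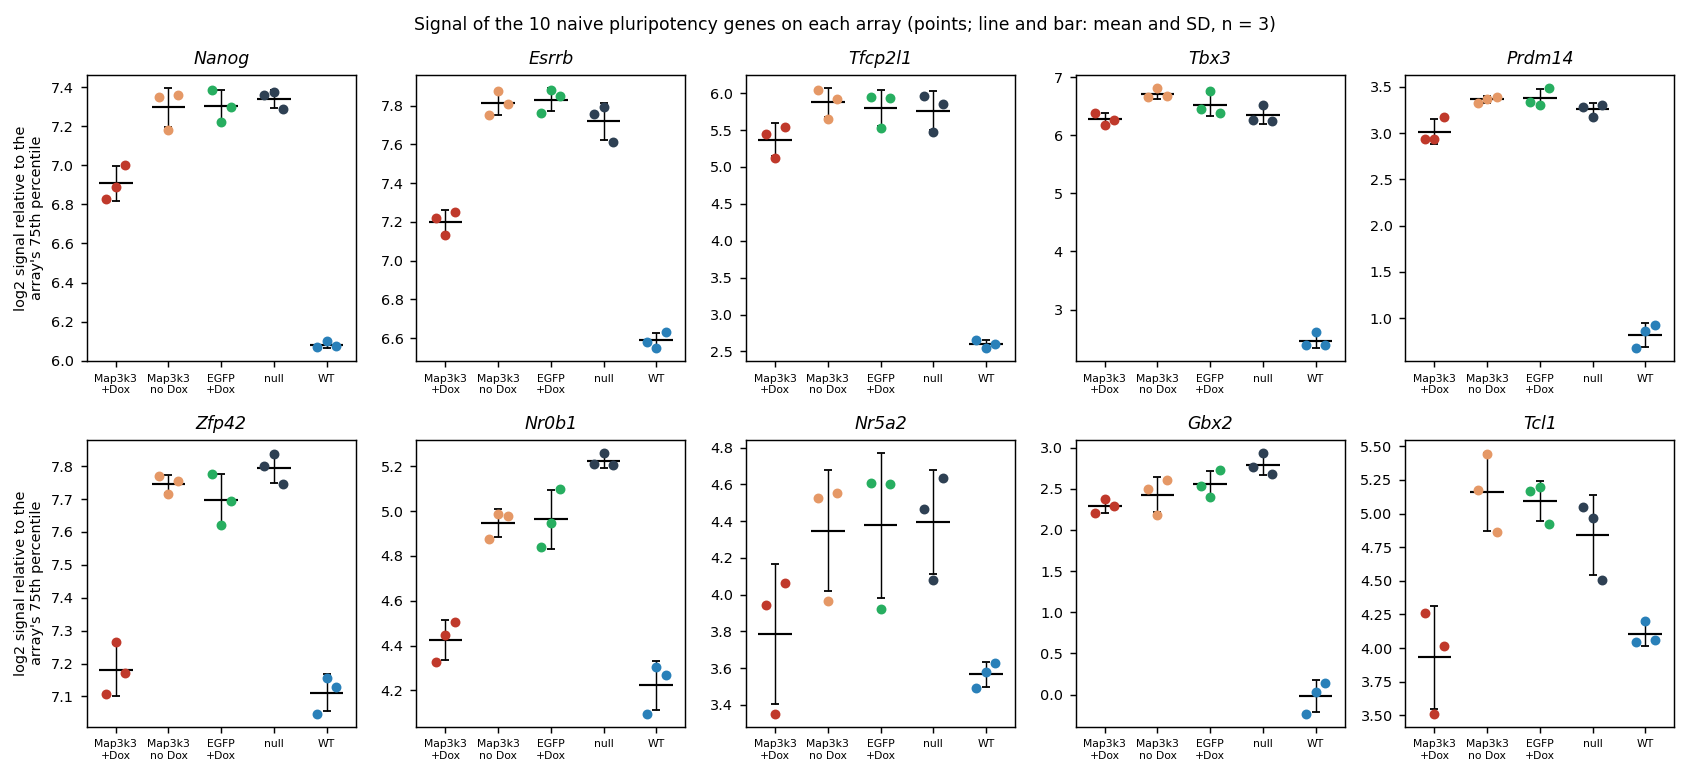
Signal of each of the 10 naive pluripotency genes (y axis, log2 units as defined above, with a scale of its own for each gene) on every array of the 5 groups (x axis). Points are arrays, in replicate order, and lines and bars are the mean and SD of 3 arrays. The WT mean is the lowest in 9 genes, and for Tcl1 the Map3k3 +Dox mean of 3.93 lies below the WT mean of 4.10.

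The effect of the Map3k3 transgene was read between Map3k3 +Dox and Map3k3 no-Dox cells of the same line. All 10 members had a lower mean with Dox, by 0.14 to 1.23 log2 units in size, and 2 of them fell by the rule for a call, Esrrb and Tcl1, where 17.9% of all genes were called, 5.59% lower and 12.3% higher. The adjusted p was under 0.05 in 8 of the 10, but 6 of these 8 stayed under 1.5-fold. Of all genes 21.8% were lower and 18.1% higher at that adjusted p with no fold minimum, so the split between lower and higher turns with the fold asked. With the replicate number as a block 9 members were under 0.05, Nr5a2 among them (adjusted p = 0.00575), and the same 2 were called. The groups did not overlap in 8 members, against 50.1% of all genes, and the median difference was -0.51 log2 units, against -0.071 over all genes, 58.0% of which had a negative difference.

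Tcl1 moved most. It had 4.26, 3.51 and 4.01 log2 units in Map3k3 +Dox cells, against 5.17, 5.44 and 4.86 in Map3k3 no-Dox cells, a difference of -1.23 ± 0.20 (limma adjusted p = 0.000535). Map3k3 +Dox array 2 was the lowest of the group, and without it the difference was -1.02. Esrrb had 7.22, 7.13 and 7.25 in Map3k3 +Dox cells and 7.75, 7.87 and 7.81 in Map3k3 no-Dox cells, a difference of -0.61 ± 0.065 or 1.53-fold lower (adjusted p = 1.93e-05). Esrrb sat just past the fold limit: without Map3k3 +Dox array 2 or without Map3k3 no-Dox array 2 the difference was -0.58 and no longer called, although its adjusted p stayed at or under 0.00359 in all alternatives.

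Zfp42 had 7.11, 7.26 and 7.17 log2 units in Map3k3 +Dox cells, against 7.77, 7.72 and 7.75 in Map3k3 no-Dox cells. The difference of -0.57 ± 0.062 was 1.48-fold and thus not called, with an adjusted p of 2.35e-05. Nr0b1 had 4.33, 4.45 and 4.50 in Map3k3 +Dox cells and 4.88, 4.99 and 4.98 in Map3k3 no-Dox cells, a difference of -0.52 ± 0.081. In both genes every Map3k3 +Dox array was below every Map3k3 no-Dox array. Nanog had 6.83, 6.89 and 7.00 in Map3k3 +Dox cells and 7.35, 7.18 and 7.36 in Map3k3 no-Dox cells (-0.39 ± 0.070, adjusted p = 0.000964). Without Map3k3 +Dox array 2, Zfp42 was called (-0.61).

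The members with the widest distance between null and WT cells moved by -0.14 (Gbx2) to -0.50 log2 units (Tfcp2l1). The rest moved by -0.39 (Nanog) to -1.23 (Tcl1). Tfcp2l1 had 5.45, 5.12 and 5.54 log2 units in Map3k3 +Dox cells and 6.04, 5.65 and 5.93 in Map3k3 no-Dox cells (-0.50 ± 0.16, adjusted p = 0.0276). Tbx3 had 6.39, 6.17 and 6.26 in Map3k3 +Dox cells and 6.66, 6.82 and 6.67 in Map3k3 no-Dox cells, and Prdm14 had 2.94, 2.93 and 3.17 against 3.33, 3.37 and 3.39 in the same groups. None of these 3 overlapped between the groups. For Tbx3, however, the null arrays (6.27, 6.53 and 6.25) overlapped with the Map3k3 +Dox arrays. Its Map3k3 no-Dox arrays lay above all of both, so its drop with Dox is not seen against null cells. Gbx2 had 2.20, 2.37 and 2.29 in Map3k3 +Dox cells, against 2.49, 2.19 and 2.60 in Map3k3 no-Dox cells. These arrays overlapped, and the 95% interval of the difference, -0.42 to 0.14, spans 0. Nr5a2, with 3.94, 3.35 and 4.06 against 4.53, 3.97 and 4.55, overlapped too (-0.56 ± 0.24, adjusted p = 0.0817). Without Map3k3 no-Dox array 2, Nr5a2 (-0.75) and Tfcp2l1 (-0.61) were called, as was Tfcp2l1 without Map3k3 +Dox array 3 (-0.59), while Nr5a2 was at -0.35 without Map3k3 +Dox array 2.

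All arrays of this comparison were on slide 1. In row 1 of that slide, with 1 Map3k3 +Dox and 3 Map3k3 no-Dox arrays, all 10 members were lower with Dox, from -0.22 for Gbx2 to -0.90 for Tcl1. With the row as a block, Zfp42 was called as well (-0.60), and the adjusted p of Tfcp2l1 was 0.160 (0.000644 to 0.245 over all alternatives). The summed signal of the 11 trophectoderm markers was 340 to 405 times the 75th percentile in Map3k3 +Dox cells and 9.40 to 21.5 in Map3k3 no-Dox cells, with 10 of the 11 genes called higher, and Cdx2, Gata3 and Hand1 were above background on no Map3k3 no-Dox array. The sum of the 6 stem-cell markers was 114 to 124 in Map3k3 +Dox cells and 151 to 177 in Map3k3 no-Dox cells. Of these 6, 3 were called lower, 1 higher and 2 were not called, against 5.59% of all genes lower and 12.3% higher. Of 8 primitive endoderm markers 6 rose and 1 fell, where 12.3% of all genes were called higher and 5.59% lower. Their summed signal was 1.15 to 1.32 in Map3k3 +Dox cells and 0.56 to 0.74 in Map3k3 no-Dox cells. Of the 8, 4 were above background on no Map3k3 no-Dox array. How far these lineage markers and the naive members moved in the same cells was not tested.

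EGFP +Dox cells give the comparison at matched Dox, and it shares the Map3k3 +Dox arrays with the one above. All 10 members again had the lower mean in Map3k3 +Dox cells, and the same 2 fell, against 18.1% of all genes called and 5.67% called lower. The groups did not overlap in 7 members, against 49.3% of all genes. Tcl1 had 5.17, 5.20 and 4.93 log2 units in EGFP +Dox cells, and Map3k3 +Dox cells differed from these by -1.17 ± 0.20 (limma adjusted p = 0.000719). Esrrb had 7.76, 7.88 and 7.85 in EGFP +Dox cells, with a difference of -0.63 ± 0.065 (adjusted p = 1.44e-05). Their Map3k3 +Dox arrays all lay below the EGFP +Dox arrays.

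The adjusted p was under 0.05 for 6 members in this comparison, Nanog, Esrrb, Prdm14, Zfp42, Nr0b1 and Tcl1, which are also under it against Map3k3 no-Dox cells. Of all genes 23.5% were lower and 17.96% higher at that adjusted p. Zfp42 had 7.78, 7.62 and 7.69 log2 units in EGFP +Dox cells (difference -0.52), Nr0b1 had 4.84, 4.95 and 5.10 (-0.54), Nanog had 7.38, 7.22 and 7.30 (-0.39) and Prdm14 had 3.34, 3.30 and 3.49 (-0.36). These 4 did not overlap with Map3k3 +Dox arrays but differed by less than 1.5-fold. The differences of Tfcp2l1 (-0.43, adjusted p = 0.0521), Tbx3 (-0.25, adjusted p = 0.0960) and Gbx2 (-0.27, adjusted p = 0.120) did not pass. With the replicate number as a block 9 members were under 0.05, since Tfcp2l1 (adjusted p = 0.00161), Tbx3 (0.0443) and Nr5a2 then passed it, and Gbx2 did not (0.108). Nr5a2 differed by -0.59 (adjusted p = 0.0670), and with the block it was called, at an adjusted p of 0.00421, where the alternatives ranged from 0.00421 to 0.239. Without EGFP +Dox array 2 it was called too (-0.82), and without EGFP +Dox array 1 Nr0b1 was (-0.60). The members' median difference was -0.47 log2 units, against -0.088 over all genes. Within row 2 of slide 1, with 2 arrays in each group, all 10 were lower in Map3k3 +Dox cells, Tcl1 by -1.42 and Gbx2 by -0.14. In row 1, with 1 array each on different slides, 9 were lower and Tbx3 differed by 0.014.

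**Figure D2:**
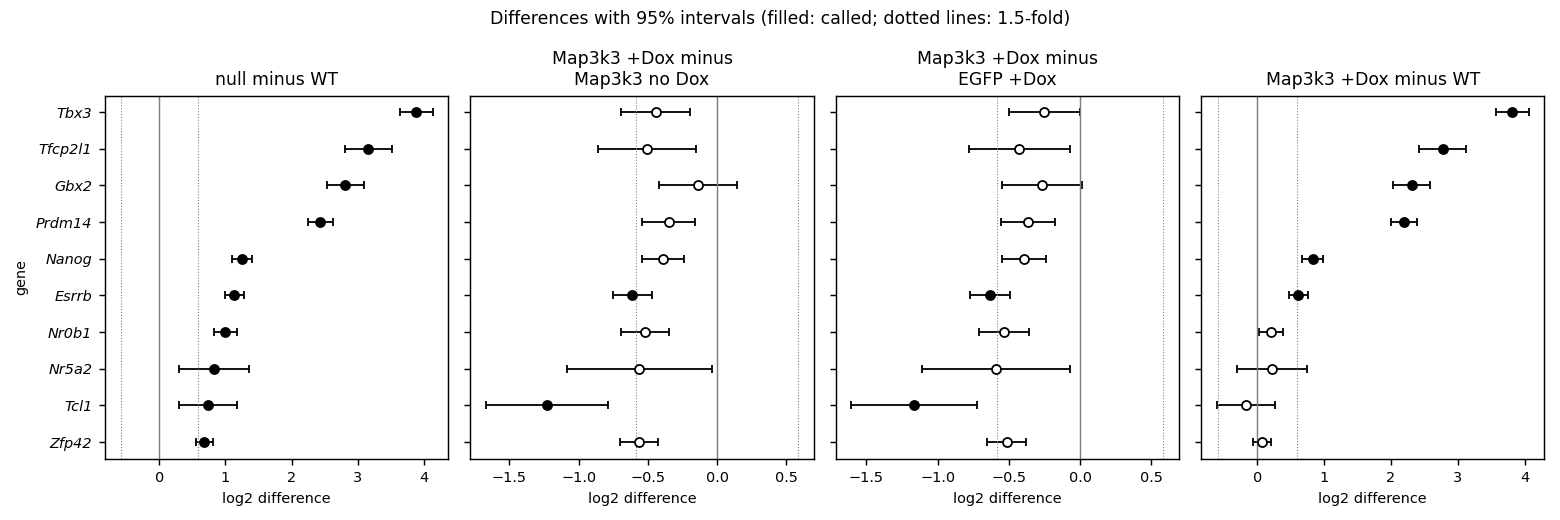
Log2 differences of the 10 members (x axis) with 95% intervals from the limma fit, in 4 comparisons, with genes (y axis) ordered by the null minus WT difference. Filled points passed the call and dotted lines mark 1.5-fold. All 10 points are filled for null minus WT, and only those of Esrrb and Tcl1 for Map3k3 +Dox minus either control, although all 10 lie below 0 in both.

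Map3k3 +Dox cells, which still lack Nat1, were next set against WT cells, to see which members remained above WT. Of the 10, 6 were called higher, where 38.3% of all genes were called and 18.4% called higher, namely Tbx3 (3.81 ± 0.11 log2 units), Tfcp2l1 (2.77 ± 0.16), Gbx2 (2.31 ± 0.13), Prdm14 (2.20 ± 0.087), Nanog (0.82 ± 0.070) and Esrrb (0.61 ± 0.065). No member was called lower (19.9% of all genes), 7 did not overlap (70.7% of all genes), and the median difference was 0.72 log2 units, against -0.011 over all genes. The other 4 were not called. Zfp42 differed by 0.070 log2 units with a 95% interval of -0.065 to 0.21, and Nr0b1 by 0.20 with an interval of 0.027 to 0.38 (adjusted p = 0.0448). Nr5a2 differed by 0.22 (-0.30 to 0.74) and Tcl1 by -0.17 (-0.61 to 0.27), so their intervals still allow differences past 1.5-fold, whereas that of Zfp42 does not. The 2 groups were on different slides. In row 1, with 1 Map3k3 +Dox and 3 WT arrays, Tbx3 differed by 3.93 and Zfp42 by -0.0031 log2 units, and with the slide as a block, fitted through EGFP +Dox, the 6 calls remained and Nr0b1 differed by 0.41 ± 0.13, or by 0.46 ± 0.13 with slide and row together.

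The place of each Map3k3 +Dox array on the line from the Map3k3 no-Dox mean (0%) to the WT mean (100%) puts these comparisons on a common scale, as a description that shares arrays with them. The 0% and 100% ends of the line come from arrays on different slides. The distances of 4 members were wide, with 4.26 log2 units for Tbx3, 3.28 for Tfcp2l1, 2.54 for Prdm14 and 2.44 for Gbx2. On these the Map3k3 +Dox arrays averaged 10.4 ± 2.6%, 15.4 ± 6.8%, 13.7 ± 5.4% and 5.64 ± 3.51% (SD, n = 3). The other 6 distances were 0.64 to 1.22 log2 units, and there the means were 32.01 ± 7.25% for Nanog, 49.99 ± 4.92% for Esrrb, 71.8 ± 48.6% for Nr5a2, 71.9 ± 12.499% for Nr0b1, 88.9 ± 12.4% for Zfp42 and 116 ± 36% for Tcl1. A wide distance makes the percentage small for a given drop. The drops themselves overlapped in part: -0.44 log2 units for Tbx3 and -0.50 for Tfcp2l1, against -0.39 for Nanog. Prdm14 (-0.35) and Gbx2 (-0.14) had the smallest drops of all members. Nr5a2 ran from 36.4 to 127% and Tcl1 from 84.7 to 156%, in both cases with array 2 as the highest, so the order of the last 4 genes is not resolved.

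**Figure D3:**
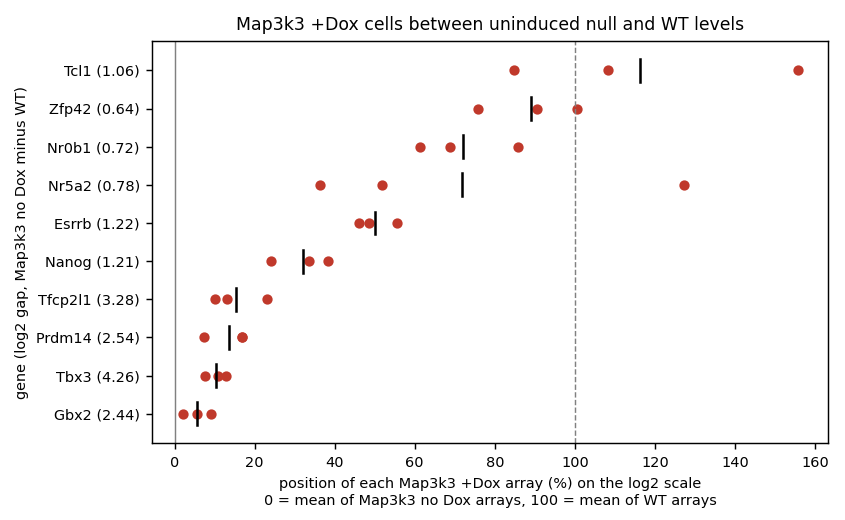
Position of each of the 3 Map3k3 +Dox arrays (points, x axis in percent of a log2 distance, with 0 at the Map3k3 no-Dox mean and 100 at the WT mean) for the 10 members (y axis, with the distance in log2 units in brackets). Black ticks are means. Gbx2, Tbx3, Prdm14 and Tfcp2l1 lie between 2.16 and 23.1%, whereas Zfp42 lies between 75.9 and 100.5% and Tcl1 between 84.7 and 156%.

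Dox and the transgene lines alone were compared with null cells. No member was called between EGFP +Dox and null cells, where 1 of 14443 genes was called (0.00692%), Tfap2a at 0.94 log2 units higher, and 1050 genes had an unadjusted limma p under 0.05. Of the 10 differences 5 were above 0 and 5 below, from -0.26 for Nr0b1 to 0.26 for Tcl1. Nr0b1 alone did not overlap, with 4.84, 4.95 and 5.10 log2 units in EGFP +Dox cells and 5.21, 5.26 and 5.20 in null cells (adjusted p = 0.475), where 11.6% of all genes did not overlap. Between Map3k3 no-Dox and null cells no gene at all was called (0%), while 2108 had an unadjusted p under 0.05. Members ranged from -0.37 for Gbx2 to 0.37 for Tbx3, and the groups did not overlap in Tbx3, Prdm14, Nr0b1 and Gbx2, against 21.1% of all genes. The adjusted p of all 10 was at least 0.186. The Map3k3 no-Dox and null arrays lay on different slides and in different slide rows. Slide, row and group thus cannot be told apart there without the other groups. With the replicate number as a block 40 genes were called in this comparison and 2 between EGFP +Dox and null cells, none of them a member.

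Spread among replicates was not alike for the members. Replicate 2 was the lowest array for Tfcp2l1 and for Nr5a2 in all 4 groups of null background, whatever the slide or row. For Nr5a2 it lay 0.47 to 0.68 log2 units below the mean of the other arrays in these groups, and in WT cells the same gap was -0.021, on the other side. For Tfcp2l1 the gaps were 0.33 to 0.44 in these groups and 0.082 in WT cells. The other Nr5a2 probe and the other Tfcp2l1 probe had the same lowest array: the Nr5a2 one had -0.96, -1.81 and -1.01 log2 units in Map3k3 +Dox cells and -0.41, -0.95 and -0.30 in null cells. No other member kept replicate 2 as the lowest in all 4 groups. As deviations from group means, Tfcp2l1 and Nr5a2 had a Pearson r of 0.92 over the 15 arrays and Tfcp2l1 and Tbx3 one of -0.63, the extremes of 45 pairs whose median was 0.035, so array-to-array variation was not shared by all members. Over the arrays with group differences left in, the 45 pairs ran from 0.51 for Gbx2 and Tcl1 to 0.99 for Tfcp2l1 and Prdm14.

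Members with several probes allow a check on the choice of probe, with p-values adjusted over the 18931 probes that passed and had a symbol. For Nanog the brightest probe and another gave 1.26 and 1.401 log2 units for null against WT cells, and -0.39 and -0.48 for Map3k3 +Dox against no-Dox cells. Its dimmest probe gave 0.83 and 0.030 (limma adjusted p = 0.931 for the comparison with no-Dox cells), and so did not follow the others there. The other Tfcp2l1 probe gave 3.05 for null against WT cells, -0.57 against Map3k3 no-Dox cells and -0.60 against EGFP +Dox cells, and that last difference was called (adjusted p = 0.0229). The other Nr5a2 probe gave 0.44 for null against WT cells and was not called (adjusted p = 0.248), with an SE of 0.31. The remaining 7 members had 1 probe each.

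The rest of the pluripotency network was described by a list of 30 partner genes, all of them measured. Between null and WT cells 12 rose and 5 fell, with a median of 0.52 log2 units, where 17.3% of all genes were called higher and 20.5% lower. Klf4 (3.26 log2 units) and Klf5 (2.02), Krüppel-like factors downstream of LIF, rose, as did Tet2 (2.16), which oxidises methylated DNA, Sox2 (1.70), the OCT4 partner, and the LIF receptor gene Lifr (1.502). The 5 that fell were Dppa3 (-5.40), a maternal factor that protects DNA methylation, Mycn (-1.84), Tfap2c (-1.06), Fbxo15 (-0.88) and Klf2 (-0.68). Klf2, a Krüppel-like factor too, thus went the other way from Klf4 and Klf5. Pou5f1, which encodes OCT4, differed by 0.57 without overlap (limma adjusted p = 0.000594). At 1.48-fold it stayed just under the fold limit and was not called. Between Map3k3 +Dox and no-Dox cells 1 rose, Dppa2 (0.65), and 10 fell, with a median of -0.36, where 12.3% of all genes were called higher and 5.59% lower. Fbxo15 (-1.43), Mycn (-1.10), Lifr (-0.88), Socs3 (-0.88), Fgf4 (-0.76), Sox2 (-0.65), Pou5f1 (-0.60) and Stat3 (-0.59) were among these, the last pair close to the 1.5-fold limit. Klf4 differed by -0.54 without overlap (limma adjusted p = 0.000231), but this was 1.45-fold and thus not called. Klf5 differed by -0.14 with overlapping arrays (adjusted p = 0.0957) and was not called. Against EGFP +Dox cells, with the same Map3k3 +Dox arrays, 1 rose and 9 fell, where 12.4% of all genes were called higher and 5.67% lower. The median there was -0.32, against -0.088 over all genes. Against WT cells 8 rose and 7 fell in Map3k3 +Dox cells, against 18.4% of all genes higher and 19.9% lower, with Klf4 at 2.96 and Mycn at -3.18.

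A list of 20 genes of the exit from the naive state, all measured, held repressors of the network and formative or primed genes. Between null and WT cells 2 rose, Foxd3 (2.23) and Zfp281 (0.61), and 11 fell, where 17.3% of all genes were called higher and 20.5% lower. The median of the list was -2.06 log2 units, against 0.073 over all genes. Among those that fell were Cdh2 (-5.03), Sox4 (-3.36), the methyltransferase genes Dnmt3a (-3.09) and Dnmt3b (-2.24), and Pou3f1 (-2.43). Fgf5 was at least 16.6-fold lower in null cells, where it was not well above background. Between Map3k3 +Dox and no-Dox cells 7 rose and 3 fell, where 12.3% of all genes were called higher and 5.59% lower. The median was 0.53 for the list, against -0.071 over all genes. Those that rose included Sox4 (3.36), Cdh2 (3.23), Dnmt3a (2.15), Foxp1 (1.02) and Fgf5, which was at least 3.71-fold higher. Dnmt3l (-1.44), Sox3 (-0.998) and Otx2 (-0.95) fell. In Map3k3 +Dox cells against WT cells 13 of the 20 were called lower (19.9% of all genes) and 1, Foxd3, higher. Counts and medians describe these lists, which were not tested as sets.

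**Figure D4:**
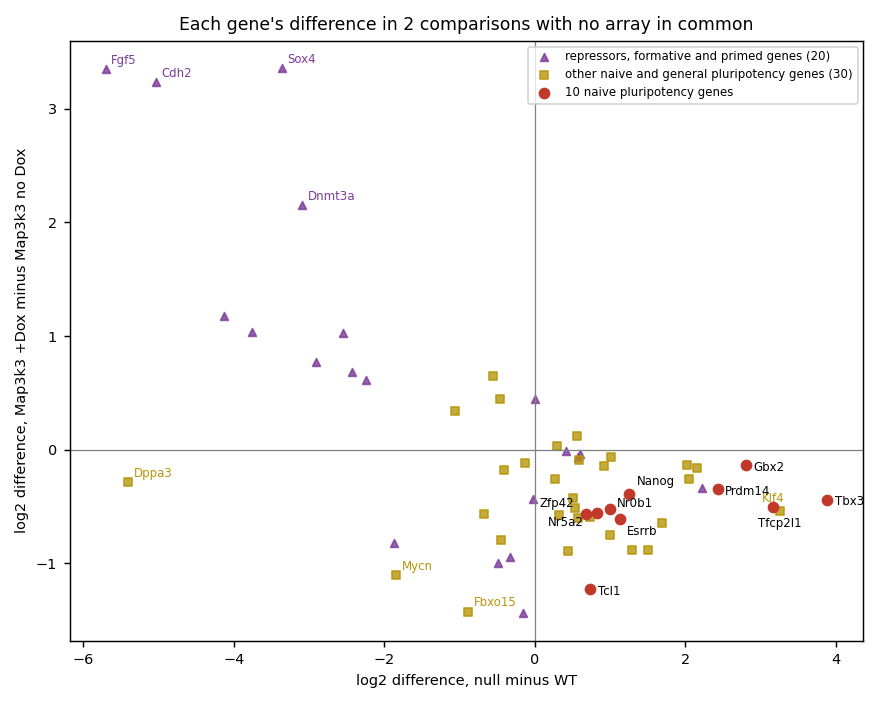
Log2 difference of null minus WT cells (x axis) against Map3k3 +Dox minus no-Dox cells (y axis) for the 10 naive genes (circles), the 30 partner genes (squares) and the 20 exit genes (triangles). The comparisons share no array. Fgf5 is drawn at its fitted values, which are not its bounds. All 10 naive genes lie right of 0 and below 0, from Tcl1 at -1.23 to Gbx2 at -0.14, while the exit genes Fgf5, Cdh2, Sox4 and Dnmt3a lie at the upper left.

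Genes whose pattern over the 15 arrays was most like each member were taken by Pearson r, with group differences left in, so any gene that separates WT from the null background as the member does will score high. Nanog was closest to E2f2 (r = 0.996), Esrrb to Irf9 (0.993), Tfcp2l1 to Pcsk6 (0.996), Tbx3 to Islr2 (0.998), Prdm14 to Epas1 (0.998) and Gbx2 to Smim11 (0.994). Partner genes appeared among the closest 3 for Tbx3, with Klf5 (0.996), and for Gbx2, with Tet2 (0.994). Members with smaller WT differences had lower maxima: 0.983 for Zfp42 (Plaat3), 0.982 for Nr0b1 (Ech1), 0.983 for Nr5a2 (Kif26a) and 0.967 for Tcl1 (Slc1a1). The most opposite genes were Lsp1 for Nanog (r = -0.996), Stbd1 for Esrrb (-0.994), Hmgxb4 for Tbx3 (-0.995) and Dmrtc1c2 for Gbx2 (-0.987). Klhl13 was the most opposite for both Tfcp2l1 and Prdm14 (-0.995 each). For the rest they were Atxn1l for Zfp42 (-0.990), Irs2 for Nr0b1 (-0.974), Clcn4 for Nr5a2 (-0.975) and Cd34 for Tcl1 (-0.973). Further down, Acta2 held rank 2 for Tbx3 (-0.995) and Dnmt3a rank 3 for Zfp42 (-0.983).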

How the data were processed

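RNA of 15 samples was measured on single-colour Agilent arrays, 3 per group. Per the file headers, the authors used protocol GE1_1105_Oct12 of Feature Extraction (version 11.5.1.1) on the scans. The deposited array values used are intensity (the processed green signal, already background-corrected by that software, per the file headers). The authors' deposited series table holds log2 values that correlated at 1 with the values used here on every array.

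Here, intensity was turned into log2, flagged and control spots were left out, the spots of a probe averaged and the array's 75th percentile of probes subtracted. Of 55681 probes 28331 received a symbol through RefSeq accessions. A probe was kept where some group had it well above background on its 3 arrays, and the brightest stood for its gene. A limma fit (limma 3.58.1, R 4.3.3) of 5 group means to 15 arrays was tested two-sided, with Benjamini-Hochberg adjustment over 14443 genes, and a call needed an adjusted p under 0.05 and 1.5-fold. The fit was tested on simulated data with independent noise on each array. Those data held no replicate, slide or row effect, so the test does not cover such effects. Folds against a group not above background are bounds, from each array's lowest signal well above background. Tables were made with Python 3.11.15 and pandas 2.3.3. The number of arrays limits the precision.

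The members, the partner, exit and marker lists and the naming rule were chosen with earlier results of these data known. The rule names every member with all its probes, list members as examples, and per member the 3 genes with the highest and the 3 with the lowest Pearson r over the arrays, clone and locus names passed over. Equal replicate numbers deviated together, with correlations over genes of 0.11 to 0.34 for Map3k3 +Dox against either control. For EGFP +Dox and Map3k3 no-Dox against null cells they were 0.26 to 0.63. This pairing was read from the data and not from the labels. The main fit held no replicate block, so its SEs, intervals, p-values and calls are unpaired. The replicate block was fitted only as an alternative. The correlations were -0.028 to 0.0068 for null against WT and 0.0083 to 0.064 for Map3k3 +Dox against WT. Slide and slide row came from the file headers.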

Additional observations from a re-analysis of the deposited data

How the results depend on the processing

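Each of the 10 members was recomputed in 6 comparisons under 13 alternatives and without each array in turn, 1140 values in all, of which 1070 kept direction and side of the threshold. All null minus WT differences stayed above 0 and all Map3k3 +Dox differences from no-Dox and EGFP +Dox below 0. The cause of each change below was not tested unless it is named. Normexp on median signals, in place of the planned mean signals, which the files used here do not hold, and slide with row together were chosen after seeing the data, as was the TTTGCAT motif. The planned normexp on mean signals was not run.

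Members called lower in Map3k3 +Dox cells, 2 against either control, became 1 with normexp and 1 with quantile normalization, since Esrrb then differed by -0.57 and -0.47 against no-Dox cells. They became 4 with slide and row together (no-Dox) and, as no fold minimum was then asked, 8 (no-Dox) and 6 (EGFP) without it. Leaving out arrays gave 2 to 3 in both. Members called for null against WT ranged from 8 to 10, with Zfp42 lost under quantile normalization (0.51) and Nr5a2 with the mean of its probes (0.63, adjusted p = 0.0629, against 0.000262 to 0.0892 over the alternatives).

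All genes called without a fold minimum were 9109 for null against WT (5466 with it), 5752 for Map3k3 +Dox against no-Dox (2580; 1718 with only probes above background on all arrays), 5987 against EGFP +Dox (2610) and 8913 against WT (5530). For EGFP +Dox against null, 1 gene became 2 with normexp, 0 with the array median, 19 with the slide, 11 with slide and row, 2 with the replicate block, 0 in a fit of only these groups and 0 to 8 without 1 array. For Map3k3 no-Dox against null, 0 became 3 with normexp, 10 with probes above background on all arrays, 2 with the row, 12 with the slide, 6 with slide and row, 40 with the replicate block and 0 to 2 without 1 array. With the array median in place of the 75th percentile the median of all genes for null against WT was 0.22 in place of 0.073, and 3414 genes were called higher and 2586 lower, in place of 2502 and 2964.

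At the 1.5-fold minimum the replicate block changed no other call of a member than that of Nr5a2 against EGFP +Dox (-0.59, adjusted p = 0.00421). Nr5a2 in Map3k3 +Dox against WT turned to -0.025 with the mean of its probes, and Tcl1 ranged from -0.34 to 0.037 without 1 array.

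Uncalled differences near 0 changed sign. For EGFP +Dox against null, in log2 units, they were Nanog 0.026 and Nr5a2 0.022 with quantile normalization, Nanog 0.071 with the mean of probes, Tfcp2l1 -0.015 with the row and Nr5a2 0.21 with the slide. With slide and row they were Nanog 0.077, Tbx3 -0.15, Zfp42 0.010, Nr0b1 0.025, Gbx2 0.066 and Tcl1 -0.41. Without 1 array they were Nanog -0.080 to 0.0022, Tfcp2l1 -0.11 to 0.18 and Nr5a2 -0.17 to 0.21. For Map3k3 no-Dox against null they were Nanog 0.042, Zfp42 0.032 and Nr5a2 0.0060 with quantile normalization, Nanog 0.14 with the mean of probes, Nanog 0.014, Tfcp2l1 -0.043 and Zfp42 0.0088 with the row, and Nr5a2 0.29 with the slide. With slide and row they were Nanog 0.19, Tbx3 -0.21, Zfp42 0.17, Nr0b1 0.23, Gbx2 0.15 and Tcl1 -0.94. Without 1 array they were Nanog -0.076 to 0.014, Tfcp2l1 -0.035 to 0.22 and Nr5a2 -0.20 to 0.15.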
